A study of Mus musculus with 121 samples.

Results

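The 15 libraries with the most and the 15 with the least Txnip mRNA were compared, out of 61 libraries with at least 1000000 counts (62 libraries in all). Total RNA of Per2::Luc mouse fibroblasts, an immortalized ear fibroblast line made from PER2::LUC sv knockin mice, was sequenced by 3′DGE, which reads the 3′ ends of transcripts. All libraries carry this knockin, and the treatments were HL, LH and HH, 3 daily cycles in which medium rich in glucose and insulin (H) and medium poor in both (L) were exchanged every 12 h in the named order, with H at every change in HH. By the study's account RNA was collected every 4 h after the cycles had ended, and the titles number 6 collections. The study describes its replicates as biological ones, the labels do not tie single libraries to cultures, and all libraries are of 1 cell line.

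The groups were chosen by a measured value and not by the labels. Counts of both sequencing runs of a library were summed, Txnip was expressed as CPM (its counts per 1000000 counts on genes), and libraries were ranked on it. Txnip itself is therefore no result here, and a difference in any other gene describes how that gene went with Txnip between libraries, not an effect of HL, LH or HH.

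Txnip encodes a protein that binds thioredoxin and limits glucose uptake. In many cells its transcription rises with glucose through the factor MondoA and its partner Mlx, which also act on Arrdc4, a gene of the same arrestin family. Insulin and growth signals tend to hold Txnip down, and it is also known to respond to stress of the endoplasmic reticulum and to the shortage of nutrients.

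The sequence through which MondoA is known to act lies upstream of Txnip. It is shown here with a shorter match, CACGTG, upstream of Arrdc4, because Txnip and Arrdc4 are the textbook pair of glucose-responsive genes. Capitals mark the match, flanking bases are in lower case, sequences are from RefSeq (GRCm38.p6), and both read along the strand of the gene.
Txnip, chr3:96557866-96557894, plus strand: actgtgCACGAGGGCTGCACGAGcctcca
Arrdc4, chr7:68749420-68749437, minus strand: cctgtgCACGTGcactat
The Txnip stretch matched a pair of E-box-like half-sites, each CACGNG and with 5 bases between them, 85 bases before the start of the gene. Of 27025 genes with a listed start, 14 (0.0518%) held this pattern on either strand within 250 bases upstream. Arrdc4 did not hold it in this window. It held an E-box, CACGTG, which 6.86% of these genes and 9.76% of the tested genes among them had. The E-box is also a form of the half-site in the first pattern.

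Txnip ranged from 8.77 to 139.9 CPM over the 61 libraries. The high group ran from 65.1 to 139.9 CPM (median 73.6, n = 15) and the low group from 8.77 to 40.5 CPM (median 27.5, n = 15), with 31 libraries between them. At the upper edge, the last library inside was LH collection 5 replicate 3 at 65.1 CPM and the first outside HH collection 1 replicate 3 at 63.6 CPM. At the lower edge, LH collection 3 replicate 2 at 40.5 CPM was inside and HL collection 5 replicate 1 at 41.3 CPM outside. No gap in Txnip marked either edge. The 3 highest libraries, LH collection 2 replicate 4 at 139.9 CPM, HH collection 6 replicate 3 at 136.3 CPM and HH collection 6 replicate 2 at 129.5 CPM, were well above the fourth at 88.7 CPM. In bulk RNA such as this, fewer cells with a transcript and less of it per cell cannot be told apart. Reads from Txnip and from Gm15441, which lies over it on the opposite strand, cannot be told apart where counting does not use strand, and its use here is not stated.

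**Figure D1:**
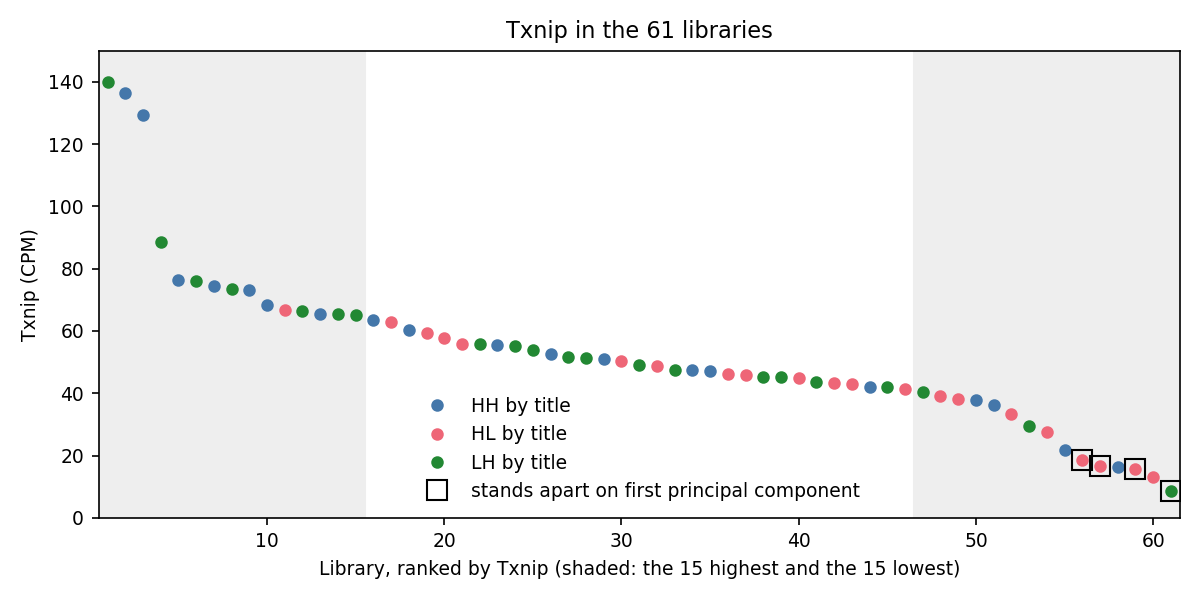
Txnip in CPM (y axis) for each of the 61 libraries ranked from highest to lowest (x axis), coloured by the treatment in the title, with the 15 highest and 15 lowest shaded. The 3 highest libraries lie between 129.5 and 139.9 CPM, the middle of the series falls without a gap, and the 4 boxed libraries, described in the text as standing apart, lie between 8.77 and 18.7 CPM.

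By the titles of the deposited samples, the high group held 7 HH, 7 LH and 1 HL library, and the low group 4 HH, 3 LH and 8 HL libraries. The library numbers of the deposited sets, read against the names that the study's read summary gives them, put 7 HH, 6 HL and 1 LH library in the high group and 4 HH, 4 HL and 6 LH libraries in the low group, with 1 number not listed in each. The numbers of HH libraries were the same in both, whereas those of HL and LH were not. Of the 15 high libraries, 7 had the same name in both sources and 7 another one, and of the 15 low libraries 6 had the same name and 8 another. Both sources therefore leave HH libraries at both ends of the Txnip range, and they conflict on whether the remaining high libraries belong to LH or to HL. The ranges of library numbers in the 2 groups overlapped almost wholly.

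The collections were spread over both groups. Collection numbers do not stand for hours. By titles, collection 3 is 4 h in HH and HL and 16 h in LH, and collections 2 and 5 are both 12 h. By titles, the high group had none of the 10 libraries of collection 1, then 2, 1, 3, 5 and 4 libraries of collections 2 to 6, and the low group had 3, 3, 3, 2, 2 and 2. All 3 HH libraries of collection 5, at 73.1, 74.3 and 76.3 CPM, were in the high group. In LH collection 2, 1 library had the lowest Txnip of all (8.77 CPM) and the other one with enough counts the highest (139.9 CPM). These are titles: by library number the first is LH collection 6, and the second is not listed.

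A set of 4 low libraries stood apart from the other 57. On the first principal component (30.5% of the variance of log2 CPM over 8154 genes) LH collection 2 replicate 1, HL collection 2 replicate 3, HL collection 5 replicate 2 and HL collection 6 replicate 3 lay at 4.39, 3.57, 2.66 and 2.28 SD, past a limit of 2 SD that no other library reached. Ereg, a growth factor of the EGF family, is an example of the difference. Its level was 668 to 2002 CPM in these 4 libraries, 7.15 to 147 CPM in the other 11 low libraries and 5.15 to 17.0 CPM in the high group. These libraries had 10745 to 11071 genes above 1 CPM, against 10983 to 11466 in the high group, and their totals of 4333104 to 6371321 counts were not low. The main counts of changed genes are therefore given with and without them. Titles call 3 of them HL and 1 LH, and library numbers call all 3 that are listed LH.

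Totals were 2136819 to 11619095 counts in the high group (median 5479529) and 3391603 to 9785826 in the low group (median 6155532), so the Txnip value of a low library rested on 38 to 325 counts. The share of counts on mitochondrial DNA genes was 1.71% to 3.60% in the high and 1.29% to 3.34% in the low group, and that on ribosomal protein genes 4.73% to 8.27% and 4.36% to 6.36%. The 12 fibroblast markers summed to 21882 to 43436 CPM in the high and 18720 to 41110 CPM in the low group. Epithelial markers summed to at most 5.20 CPM in either group and immune markers to at most 39.8 CPM. Adipocyte markers reached 78.2 CPM in the high and 21.97 CPM in the low group, and cartilage and muscle markers 649 and 1129 CPM. The endothelial list reached 269.7 CPM through Kdr, with Pecam1 at a median of 0 CPM in the high group.

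Of 13265 genes with at least 1 CPM in 3 libraries, Txnip left out, 1893 (14.3%) differed between the groups by edgeR's quasi-likelihood test at a Benjamini-Hochberg adjusted p under 0.05, and 3751 at an unadjusted p under 0.05. Genes higher in the high Txnip libraries numbered 723 (5.45%) and genes lower 1170 (8.82%). This balance depends on the scaling, since with library totals in place of TMM factors 1146 genes were higher and 572 lower, with the median of all genes moved from 0.0040 to 0.11 on the log2 scale. Without the 4 libraries that stand apart, 988 genes (7.45%) were called, 487 higher and 501 lower. Later counts of list members without the 4 are to be read against these numbers. Both times 752 genes were called with the same sign. These shared genes are 39.7% of the first list and 76.1% of the second. With treatment by titles as a term, 196 genes were higher and 413 lower, and without the HH libraries 174 and 432. Without the 3 libraries of highest Txnip, LH collection 2 replicate 4, HH collection 6 replicate 3 and HH collection 6 replicate 2, the counts were 374 and 799, and they were 366 and 770 when libraries were ranked in run 1 and tested in run 2.

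The 10 genes higher with Txnip that had the smallest p at 10 CPM or more were Ogn, Sfrp2, Fzd1, Ccn1, Amotl2, Cyp1b1, Vegfd, Smoc2, F2r and Ghr. Sfrp2, a secreted protein that binds Wnt ligands, was 603 to 990 CPM (median 740) in the high group and 345 to 602 CPM (median 457) in the low group, and the groups did not overlap. Its log2 difference was 0.56 ± 0.08 (SE, adjusted p = 8.2e-05), and 0.56 ± 0.09 without the 4 libraries. Fzd1, a Wnt receptor, was 13.5 to 50.6 CPM (median 21.4) against 3.92 to 17.7 CPM (median 8.26), a 2.50-fold difference with some overlap between the groups. Ogn, a small leucine-rich proteoglycan also called osteoglycin, was 481 to 799 CPM (median 705) against 240 to 562 CPM (median 396), with a log2 difference of 0.62 ± 0.08. Smoc2, a matrix protein that binds calcium, was 99.4 to 230.5 CPM (median 166) against 49.2 to 122 CPM (median 96.2), and its log2 difference of 0.76 ± 0.12 rose to 0.84 ± 0.12 without the 4 libraries. In that smaller comparison Smoc2 had the lowest p among genes at 10 CPM or more (adjusted p = 0.00029).

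The same set of 10 leading genes held Cyp1b1, a cytochrome P450 enzyme, Vegfd, a growth factor of lymphatic vessels, F2r, the thrombin receptor, and Ghr, the growth hormone receptor. Cyp1b1 was 114.2 to 212.0 CPM in the high group and 39.7 to 111.4 CPM in the low group, which did not overlap. F2r was 41.2 to 79.9 CPM (median 53.1) against 8.95 to 45.7 CPM (median 23.2), with a log2 difference of 1.03 ± 0.16 (edgeR, adjusted p = 0.00023). Vegfd and Ghr differed less, by 0.58 ± 0.09 and 0.51 ± 0.08 on the log2 scale, and all 4 stayed called without the libraries that stand apart, at 0.55, 0.46, 0.85 and 0.43 for Cyp1b1, Vegfd, F2r and Ghr. Of all genes tested, 5 (0.0377%) had groups that did not overlap, all of them higher: Sfrp2, Cyp1b1, Itm2b, C1s1 and Rhou. Itm2b, at 899 to 1156 CPM against 565 to 892 CPM, was one of these although its adjusted p was 0.054 with all 30 libraries and 0.0062 without the 4.

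Targets of SRF and YAP, factors that act on genes of the cytoskeleton and of cell contact, had the largest share of higher genes among the lists with at least 10 tested members. Of 17 tested members 7 were higher and 1 lower (47.1% called against 14.3% of all genes, median log2 difference 0.29, against 0.0040 over all genes), and without the 4 libraries 6 were higher and 1 lower (median 0.03). The higher genes were Ccn1, Ccn2, Amotl2, Srf, Cnn2, Vcl and Ankrd1, and all but Ankrd1 kept the call without the 4 libraries. Ccn1, a matricellular protein also called Cyr61, was 35.1 to 90.8 CPM (median 53.8) in the high group and 13.5 to 37.7 CPM (median 22.6) in the low group. Its log2 difference was 1.11 ± 0.16 (adjusted p = 8.2e-05), and 0.99 ± 0.16 without the 4 libraries. Ccn2, which encodes connective tissue growth factor, went further, from a median of 4.53 CPM in the low to 17.3 CPM (9.77 to 48.7 CPM) in the high group, with a log2 difference of 2.04 ± 0.33. Amotl2, an angiomotin that binds YAP, was 94.6 to 158.7 CPM against 44.2 to 103.2 CPM. The member that was lower, Tpm1 with all libraries and Tagln without the 4, is a contractile gene in both cases, so the list did not move as one.

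Matrix genes outside the collagens went both ways. Of 30 glycoproteins and proteoglycans 6 were higher (Dcn, Lum, Nid2, Fbln5, Timp3 and Thbs1) and 3 lower (Lox, Tnc and Bgn), or 30% called against 14.3% of all genes, with a median of 0.09, and without the 4 libraries 5 were higher and 5 lower. Nid2, a basement membrane protein, was 66.9 to 149.2 CPM against 19.5 to 130.9 CPM (log2 difference 0.85 ± 0.15). Tnc, a matrix protein of wounds and tumours, was 4.06 to 23.7 CPM in the high group and 9.17 to 114.9 CPM in the low group, and its log2 difference of -1.56 ± 0.30 became -0.89 ± 0.22 without the 4 libraries. Of 17 collagen chains 1 was called (5.88%, against 14.3% of all genes), Col8a1 at 0.50 ± 0.13. None was called without the 4 libraries (edgeR, adjusted p = 0.057 for Col8a1). The 12 fibroblast markers share Dcn and Lum with the matrix list. Of the 12, these 2 were higher and 1, S100a4, was lower (25% called against 14.3% of all genes). Without the 4 libraries the same 2 were higher and none lower. Dcn lost its call without HH libraries, and Lum with treatment by titles or collection by library numbers as a term.

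**Figure D2:**
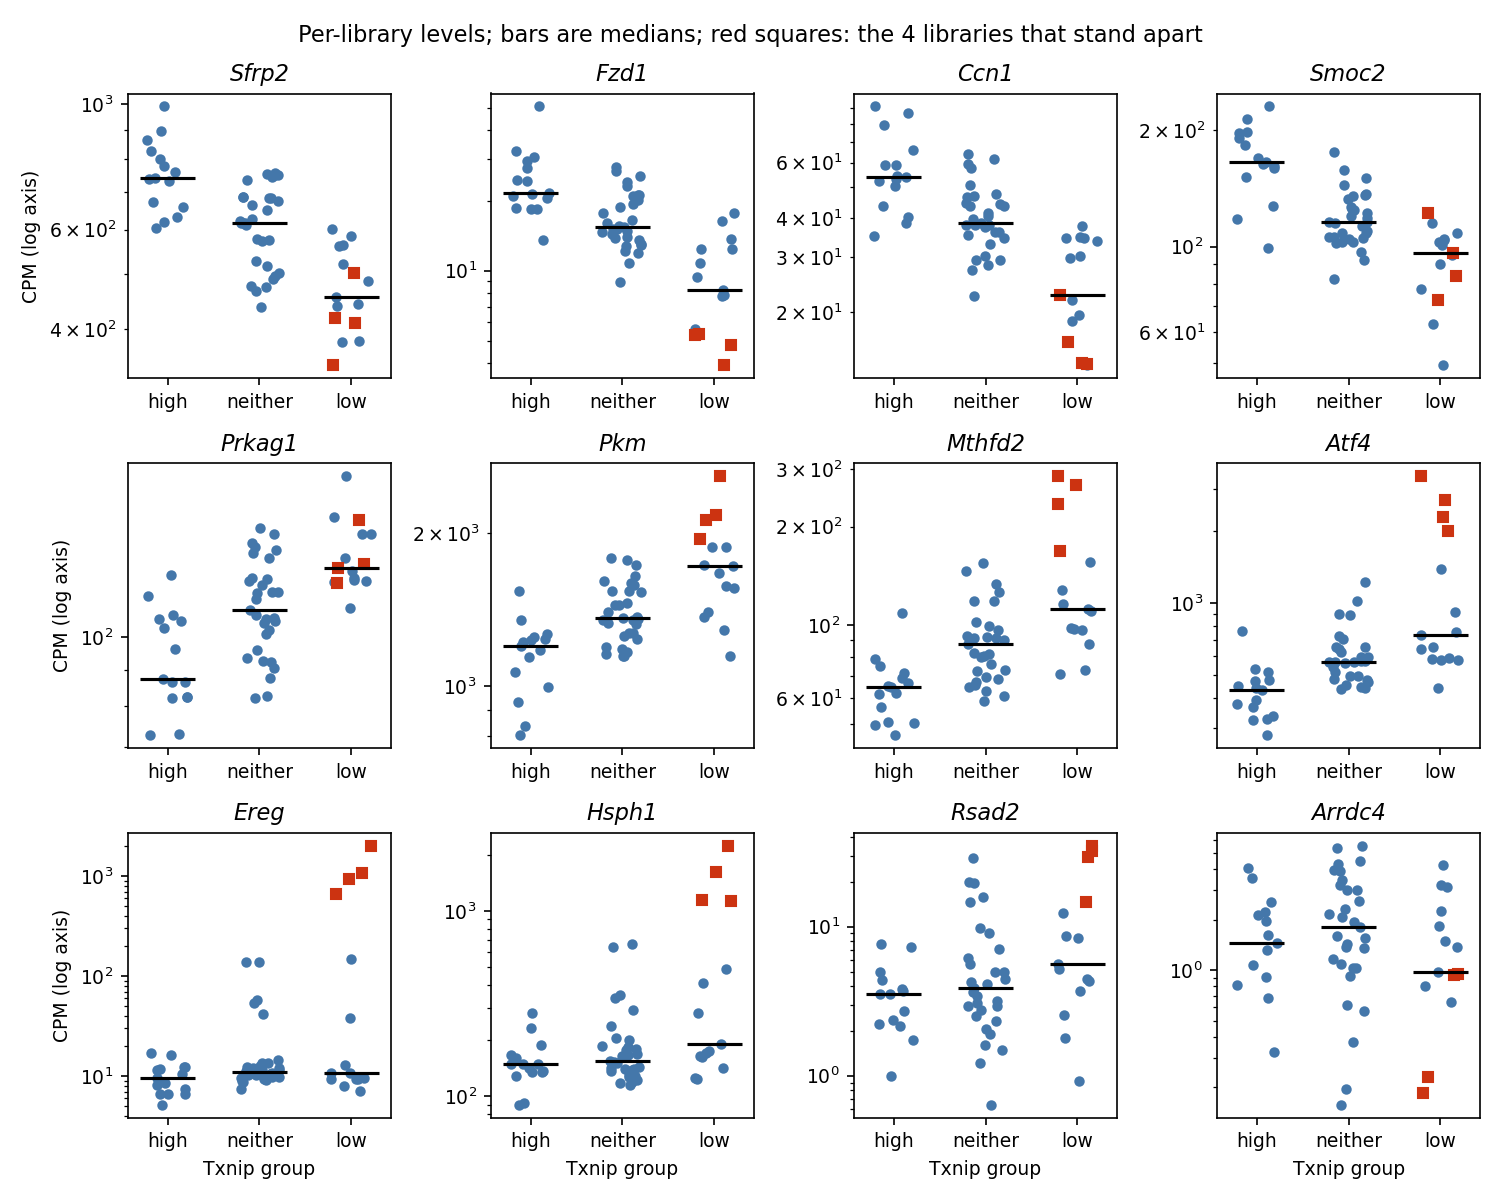
Levels of 12 genes in CPM (y axes, log scale; libraries at 0 are not drawn) in the high, neither and low Txnip groups (x axes), 1 point a library, with bars at the medians of all libraries and red squares for the 4 low libraries that stand apart. Sfrp2, Fzd1, Ccn1 and Smoc2 fall and Prkag1 and Pkm rise across the groups in blue points as well as red, Ereg and Hsph1 are high mainly in the red squares, and Arrdc4 overlaps throughout.

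Some genes of glucose breakdown were lower where Txnip was higher. Of 21 tested genes of glycolysis and glucose entry 7 were lower (33.3%, against 8.82% of all genes) and none higher (median -0.21), and without the 4 libraries 5 were lower (median -0.09). Pkm, which encodes pyruvate kinase, was 801 to 1543 CPM (median 1202.5) in the high group and 1146 to 2592 CPM (median 1723) in the low group. The groups overlapped, and the log2 difference was -0.74 ± 0.12 (adjusted p = 0.00023) with all libraries and -0.51 ± 0.09 without the 4. Ldha, the lactate dehydrogenase subunit, was 144.5 to 224.8 CPM against 113.0 to 468.4 CPM, and Aldoa, an aldolase, 317 to 566 CPM against 421 to 1257 CPM. Pgam1 and Hk1 also kept a lower call without the 4 libraries, whereas Pfkp and Gpi1 did not. Prkag1, a regulatory subunit of the energy sensor AMPK, had the lowest p among the lower genes at 10 CPM or more. It was 72.8 to 122.3 CPM (median 87.2) in the high group and 109.8 to 168.7 CPM (median 125) in the low group, with a log2 difference of -0.60 ± 0.08, and -0.54 ± 0.08 without the 4 libraries. Got2, the mitochondrial aspartate aminotransferase and the last of the 10 leading lower genes, was at -0.46 ± 0.07 and -0.36 ± 0.07.

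ATF4, a transcription factor of amino acid shortage and other stress, and genes that it is known to turn on had the largest share of lower genes among the lists with at least 10 tested members. Of 20 tested members 10 were lower (Atf4, Gars, Trib3, Asns, Atf5, Ddit3, Nupr1, Chac1, Sesn2 and Slc7a1) and 2 higher (Stc2 and Slc7a5), with a median of -0.54, or 60% called against 14.3% of all genes. Without the 4 libraries 7 were lower and 3 higher, with a median of -0.27. Atf4 was 278.8 to 764 CPM (median 431) in the high group, 439 to 1395 CPM in 11 low libraries and 2000.2 to 3410 CPM in the 4 that stand apart. Its log2 difference was -1.70 ± 0.28 (adjusted p = 0.00026) with all 30 libraries and -0.79 ± 0.13 (adjusted p = 0.00063) without the 4. Mthfd2, a mitochondrial enzyme of one-carbon metabolism, was 46.3 to 108.8 CPM against 71.0 to 285.0 CPM, with -1.27 ± 0.20 and -0.74 ± 0.12. Trib3, a pseudokinase induced by this pathway, was 1.82 to 7.06 CPM against 5.14 to 16.2 CPM, with -1.05 ± 0.17 and -0.90 ± 0.18, so that it depended little on the 4 libraries. Gars, the glycyl-tRNA synthetase, was 97.3 to 141.1 CPM against 130.3 to 176.0 CPM.

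Promoters of these genes are shown because 10 of 20 members were lower, and ATF4 has a known response element, searched for here as TGATGNAAN on both strands of the 250 bases before each start. Of 18 members with a listed promoter 8 held it, against 2.49% of 10155 tested genes and 3.89% of 27025 genes with a listed promoter. The list was made of genes known to answer ATF4. Of the 10 lower members 4 held it, Asns, Chac1, Gars and Nupr1. Aars, Fgf21, Slc7a11 and Vldlr, which were not called, held it as well, so the match was not particular to the lower members. Capitals mark the match in the strand of the gene, where it reads as the reverse complement in Chac1, Gars and Nupr1.
Asns, chr6:7693218-7693238, minus strand: gccacaTGATGAAACttcccg
Chac1, chr2:119351042-119351062, plus strand: cctgccGTTGCATCActcctg
Gars, chr6:55037964-55037984, plus strand: tgcgctATTTCATCAtgcacc
Nupr1, chr7:126625567-126625587, minus strand: ggccagATTGCATCAgacagg
These letters describe the sequences and were not tested as sites. Asns, asparagine synthetase, had 17.7 to 43.6 CPM in the high and 21.8 to 73.2 CPM in the low group. Nupr1, a small nuclear protein of stress, had 29.0 to 109.1 CPM and 44.5 to 1576 CPM, with the highest value in a library that stands apart.

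Of 14 genes of the pentose phosphate and serine branches off glycolysis 5 were lower (Mthfd2, Psat1, Shmt2, Psph and Pgls; 35.7%, against 8.82% of all genes) and none higher, with a median of -0.16, and without the 4 libraries Mthfd2 and Pgls were (median -0.19). Pgls lost its call with library totals, in both splits by run, with treatment by titles as a term and without HH libraries. Psat1, an enzyme of serine synthesis, was 56.8 to 157.1 CPM against 54.3 to 326 CPM. Its log2 difference of -1.07 ± 0.23 fell to -0.47 ± 0.15 (edgeR, adjusted p = 0.051) without the 4. Of 15 genes of fatty acid synthesis 2 were lower both times, Elovl1 and Fasn, and Fasn lost the call with library totals, in 10 against 10 libraries, in both splits by run, with treatment by titles or collection by numbers as a term, without HH libraries, and without HL collection 6 replicate 4 (-0.37, adjusted p = 0.0505, edgeR). Of 23 genes of sterol synthesis 2 were lower, Ebp and Sc5d, and 4 without the 4 libraries, Mvd, Pmvk, Ebp and Fdps. With all libraries the shares lower, 13.3% of the fatty acid and 8.70% of the sterol list, were near the 8.82% of all genes. Without the 4 libraries 501 of 13265 genes were lower, a smaller share than in either list. Sc5d lost its call on leaving out any of 8 single libraries. The medians of the fatty acid and sterol lists were -0.09 and -0.02 with all libraries, against 0.0040 over all genes. Without the 4 they were -0.17 and -0.07, against 0.0012.

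Partners and targets of MondoA, the factor through which glucose is known to act on Txnip, gave no call. None of the 11 tested members was called (median -0.08), which says little about the list where 14.3% of all genes were, and without the 4 libraries 1 was, Tgif1. Arrdc4 was 0 to 4.10 CPM (median 1.46) in the high group and 0 to 4.22 CPM (median 0.975) in the low group. The groups overlapped over their whole range, and the log2 difference was 0.07 ± 0.43 (adjusted p = 0.95). At about 1 CPM these libraries hold only a few counts of Arrdc4, and a difference within this error was not detectable at this depth. Arrdc3, a more abundant relative, was 5.68 to 25.7 CPM (median 11.9) against 5.14 to 21.0 CPM (median 8.69), with 0.12 ± 0.23 (adjusted p = 0.78). Without the 4 libraries Arrdc3 differed by 0.55 ± 0.21, which did not pass the test either (adjusted p = 0.098). Hk2, a hexokinase, was 5.62 to 15.8 CPM against 3.54 to 23.3 CPM, and the factors Mlx and Mlxip differed by -0.24 ± 0.12 and 0.21 ± 0.12, none of them called.

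Genes that FOXO factors raise when insulin signalling is low were divided. Of 18 tested 6 were higher (Cdkn1b, Insr, Ccng2, Klf15, Trib1 and Bnip3) and 3 lower (Sesn1, Bcl6 and Gabarapl1), with a median of 0.24, or 50% called against 14.3% of all genes. Without the 4 libraries Cdkn1b, Insr and Trib1 were higher and none was lower. Sesn1, a sestrin of the stress response, was 18.6 to 39.1 CPM in the high group and 13.03 to 171.0 CPM in the low group, and its log2 difference went from -1.45 ± 0.34 to -0.31 ± 0.19 without the 4. Of 16 hypoxia targets 4 were higher and 2 lower (37.5% called against 14.3% of all genes), and without the 4 libraries 3 were higher. Car9, a carbonic anhydrase, rose by 1.15 ± 0.28, and Egln1, an oxygen-sensing hydroxylase, was 44.2 to 79.7 CPM against 29.5 to 55.2 CPM (0.44 ± 0.10), and both were called without the 4 libraries as well. Car9 was not called without the HH libraries, with treatment by titles as a term, or when libraries were ranked in run 2 and tested in run 1.

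Some heat shock and interferon genes were lower with Txnip in the full comparison, and none of these calls was kept without the 4 libraries. Of 14 heat shock chaperones 4 were lower, Hsph1, Cryab, Hspa4 and Bag3 (28.6%, against 8.82% of all genes, median -0.35). Without the 4 libraries another gene, Hsp90ab1, was lower alone (median -0.08). Hsph1 was 89.9 to 282.3 CPM in the high group, 125 to 484 CPM in 11 low libraries and 1127 to 2241 CPM in the 4. Its log2 difference was -2.10 ± 0.40 and became -0.55 ± 0.18 (adjusted p = 0.051). Cryab, a small chaperone of the lens and muscle, went from -2.18 ± 0.47 to -0.10 ± 0.16. Of 20 interferon and MHC class I genes 9 were lower (45%, against 8.82% of all genes, median -0.58). Without the 4 libraries none was (median -0.07), which is near the share of all genes there, 501 of 13265. Rsad2, an antiviral protein, was 0 to 7.67 CPM in the high group, 0.920 to 12.3 CPM in 11 low libraries and 14.7 to 34.8 CPM in the 4, and Usp18, which trims the interferon response, went from -1.69 ± 0.42 to -0.32 ± 0.26. Ereg showed the largest dependence among the 10 leading lower genes, from -5.35 ± 0.86 to -1.37 ± 0.37, and it remained called (adjusted p = 0.019).

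Of 15 NF-kB targets and chemokines 5 were lower (Cxcl1, Ptgs2, Nfkbiz, Ccl7 and Ccl2) and 2 higher (Vcam1 and Cxcl12), or 46.7% called against 14.3% of all genes, and without the 4 libraries the 2 higher genes alone were called. Vcam1, an adhesion molecule, was 15.3 to 41.4 CPM (median 26.4) against 2.77 to 23.5 CPM (median 13.8), with 0.85 ± 0.19 and 0.60 ± 0.14. It lost its call when libraries were split at the median of the own collection. Ptgs2, the inducible cyclooxygenase, had almost equal medians of 8.24 and 8.35 CPM, while its highest low library reached 265.9 CPM. Its log2 difference turned from -2.53 ± 0.59 to 0.18 ± 0.28 without the 4 libraries. Of 20 immediate early genes 1 was higher (Klf2) and 2 lower (Klf4 and Ier3), a share of 15% that is near the 14.3% of all genes, and none was called without the 4 libraries. Why these 4 libraries stand apart was not tested. Their Txnip was 8.77 to 18.7 CPM. Within that range, HL collection 6 replicate 4 at 12.97 CPM and HH collection 2 replicate 1 at 16.3 CPM did not stand apart.

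**Figure D3:**
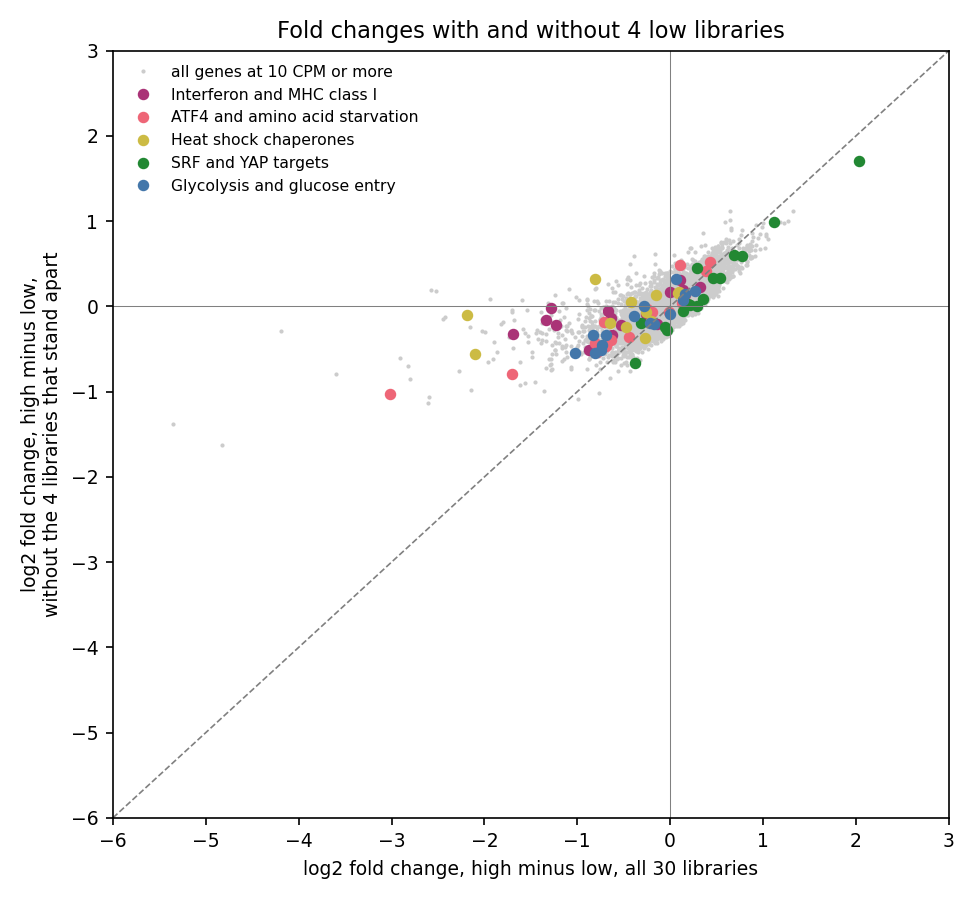
Log2 difference between high and low Txnip libraries with all 30 libraries (x axis) and without the 4 low libraries that stand apart (y axis), for genes at 10 CPM or more on average, with members of 5 gene lists coloured and a dashed line where both are equal. The interferon and heat shock genes with the most negative x values lie closer to 0 on the y axis than on the x axis, ATF4 targets keep part of their difference, and the leading SRF and YAP targets stay near the line.

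Genes known to answer glucocorticoids gave 4 higher (Cebpd, Klf9, Tsc22d3 and Tgm2) and 1 lower (Sgk1) of 13 (38.5% called against 14.3% of all genes), and Cebpd and Klf9 were called without the 4 libraries too. Cebpd, a C/EBP transcription factor, was 12.3 to 62.2 CPM (median 32.1) in the high and 4.41 to 20.4 CPM (median 13.7) in the low group, with a log2 difference of 1.15 ± 0.19 (adjusted p = 0.00029) and 0.995 ± 0.17 without the 4. Klf9, a Krüppel-like factor, was 54.1 to 102 CPM against 45.5 to 71.9 CPM. Of 20 chaperones and factors of the endoplasmic reticulum 3 were higher (Xbp1, Manf and Pdia6) and none lower, with a median of -0.02, and this share of 15% is near the 14.3% of all genes. Xbp1 and Manf were also called without the 4 libraries, while Pdia6 was not, and it lost the call on leaving out any of 16 single libraries. Manf and Xbp1 lost it without the HH libraries, and Manf also with treatment by titles as a term. Xbp1, a transcription factor of the unfolded protein response, was 27.9 to 63.2 CPM against 8.54 to 36.8 CPM (0.72 ± 0.16), and Manf, a secreted protein of the same response, was 63.7 to 113 CPM against 18.9 to 74.6 CPM (0.55 ± 0.14). Of 19 NRF2 antioxidant genes 2 were higher and 2 lower (21.1% called against 14.3% of all genes), and 3 and 1 without the 4 libraries. Txnrd1, the thioredoxin reductase of the system that Txnip binds, was 112.3 to 210.0 CPM against 160.8 to 551.8 CPM. Its log2 difference was -0.84 ± 0.17, and -0.37 ± 0.09 without the 4 libraries (adjusted p = 0.013).

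Of 30 genes of DNA replication 7 were lower (23.3%, against 8.82% of all genes, median -0.27), and without the 4 libraries 6 were (median -0.39). Mcm7 and Mcm3, subunits of the replicative helicase, were called both times, although Mcm3 was not when libraries were ranked in run 1 and tested in run 2 or split at the median of the own collection. Mcm7 was at 46.4 to 135.9 CPM against 108.1 to 196.6 CPM. Of 30 mitosis genes none was called with all libraries (median -0.18), against 14.3% of all genes. Without the 4 libraries Birc5, Top2a and Smc2 were lower. Of 30 cytosolic ribosomal protein genes 5 were higher and 3 lower (26.7% called against 14.3% of all genes, median 0.10), with Rpl8 at -0.43 ± 0.08 and Rps4x at 0.36 ± 0.11. The call of Rps4x was lost in both splits by run, in 10 against 10 libraries, against the median of the own collection, with treatment by titles or collection by numbers as a term, and without HH libraries. Leaving out the 4 libraries, 7 of them were higher and 2 lower. Of 25 lysosome genes 1 was higher and 3 lower (2 and 1 without the 4), and of 30 nuclear genes of the respiratory chain 1 and 3 (1 and 2 without the 4). These shares of 16.0% and 13.3% are near the 14.3% of all genes. Of 12 mitochondrial DNA genes 1, mt-Nd6, was lower (8.33%, near the 8.82% of all genes). Its call was lost without the 4 libraries and on leaving out any of 12 single libraries. None of 6 nuclear RNAs was called, which says little where 14.3% of all genes were.

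Clock genes were called at about the share of all genes tested, 2 of 15 activators and repressors (13.3%, against 14.3%). Per3 was higher (1.32 ± 0.37, adjusted p = 0.015) and Rora lower (-0.81 ± 0.20), and neither was called without the 4 libraries. Per3 was 0.468 to 33.2 CPM in the high and 1.15 to 12.7 CPM in the low group. Per2, whose protein carries the luciferase in these cells, was 0.165 to 19.4 CPM against 0.308 to 12.3 CPM (1.11 ± 0.50, edgeR, adjusted p = 0.14). These libraries read 3′ ends, and whether the knockin transcript keeps the annotated 3′ end of Per2 is not given in the sources used here. The values may therefore miss part of the Per2 mRNA. The bZIP factors of the clock output were not called (0 of 4), with Dbp at 3.02 to 109.9 CPM against 2.44 to 53.9 CPM. Both groups mix collections of different hours. With collection by titles as a term Per3 was no longer called. This term does not stand for hour, since titles give the same collection number other hours in LH than in HH and HL. Among markers of other cells, Kdr, a VEGF receptor, was higher (0.60 ± 0.20), with 158.7 to 269.7 CPM in the high group and 20.3 to 247.2 CPM in the low group. Leaving out HH collection 4 replicate 1, HH collection 6 replicate 2, HL collection 2 replicate 3, HL collection 5 replicate 2 or HL collection 6 replicate 3 ended the call of Kdr, at 0.53 to 0.58, as did no minimum depth, treatment by titles or collection by numbers as a term, the split at the median of the own collection, and leaving out the HH libraries. The 3 HL libraries named are among the 4 that stand apart, and without all 4 Kdr was called (0.30 ± 0.09). No tested epithelial (3), immune (5), adipocyte (3) or cartilage and muscle (3) marker was called with all libraries. Without the 4 libraries Fabp4 was called among the adipocyte markers (0.85 ± 0.27).

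**Figure D4:**
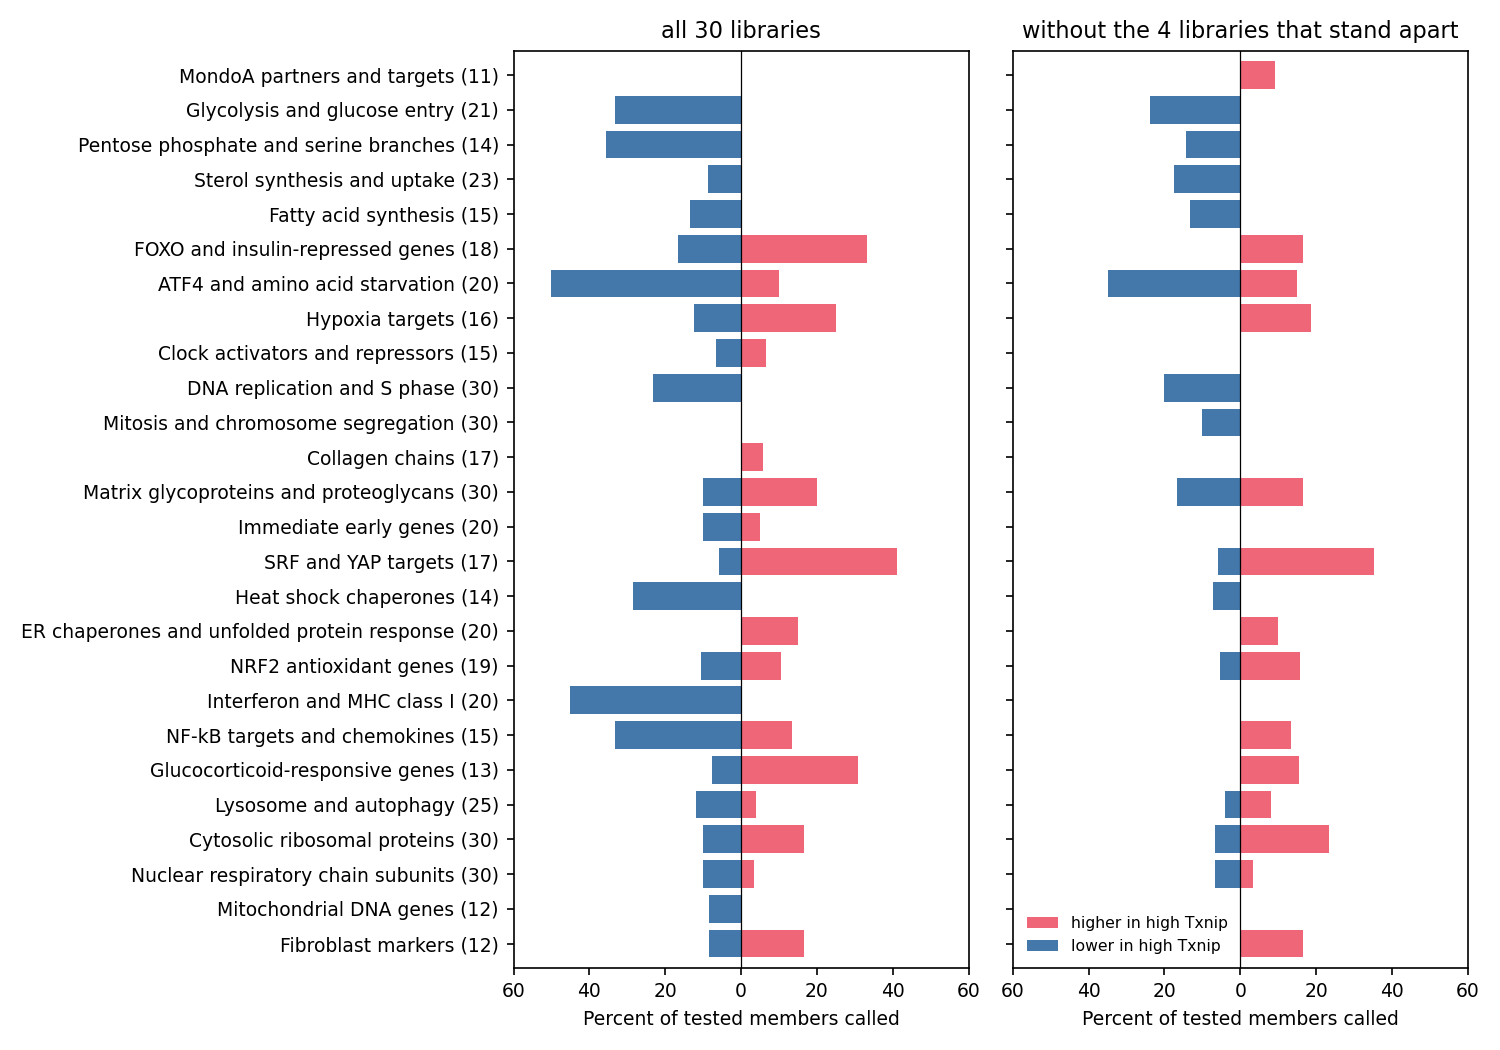
Percent of tested members of each gene list with at least 10 tested members (number in brackets) that were called higher (red, to the right) or lower (blue, to the left) in the high Txnip libraries, with all 30 libraries (left panel) and without the 4 that stand apart (right panel). Interferon genes go from 9 of 20 lower to none, while SRF and YAP targets go from 7 to 6 of 17 higher. Of all genes tested, 14.3% were called with all 30 libraries and 7.45% without the 4.

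The 5 genes most like Txnip over all 61 libraries, by Spearman's rho of CPM, were Ctdsp2 (0.815), Ccn1 (0.813), Fzd1 (0.811), 2310022B05Rik (0.811) and Eif3e (0.804), and the 5 least like it were Ifitm2 (-0.724), Rnd2 (-0.690), Atf4 (-0.690), Prkag1 (-0.680) and Pkm (-0.667). These values describe genes at 10 CPM or more, share the library totals that scale each value, and include the 30 libraries already used. Ctdsp2, a phosphatase, was 98.5 to 233.99 CPM against 44.2 to 109.3 CPM, and Ifitm2, an interferon-induced membrane protein, 221 to 417 CPM against 306 to 562 CPM. Ifitm2 is not in the interferon list, whose 9 lower genes lost their calls without the 4 libraries. Ifitm2 kept its call there and differed almost as much, by -0.53 ± 0.09 against -0.63 ± 0.09 with all libraries.

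The 31 libraries of neither group did not enter the comparison, though the ranking on Txnip placed them between the groups. In them no gene passed the test of a slope on log2 Txnip (0 of 13265, 0%, in edgeR, with 938 at an unadjusted p under 0.05). Txnip spans only 41.3 to 63.6 CPM there. Of the 1893 genes called between the groups, 1647 (87.0%) had a slope of the same sign in these libraries, against 65.3% of all genes tested. Fzd1 had a slope of 1.25 ± 0.31 per doubling of Txnip, Ccn1 of 0.94 ± 0.30 and Atf4 of -0.93 ± 0.32, whereas Sfrp2 had 0.19 ± 0.25, Ogn 0.22 ± 0.31 and Mthfd2 -0.58 ± 0.33.

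HH libraries are the group on which titles and library numbers concur, and 7 of them were in the high and 4 in the low group. Among these 11 libraries edgeR called no gene (0 of 13265, 0%), with 1286 genes at an unadjusted p under 0.05. With a slope on log2 Txnip over all 19 HH libraries, 1555 genes (11.7%) passed. Between the 7 and 4 libraries Fzd1 differed by 1.43, Smoc2 by 0.96 and Atf4 by -0.67 on the log2 scale, none of them called there. These 11 libraries are among the 30 that gave the calls of the full comparison, so their signs are no separate evidence for it. Within HH the 4 libraries that stand apart do not enter. Its values for Ereg (-0.98), Cryab (0.10 ± 0.25) and Ptgs2 (0.78 ± 0.43), none of them called, therefore belong beside those without the 4.

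A slope on log2 Txnip over all 61 libraries differed between HH and the other libraries for 1179 genes (8.89%), of which 802 had the more positive slope in HH and 377 the more negative one. With library totals in place of TMM factors these were 302 and 852 genes. Without the 4 libraries, which all lie outside HH, 4 genes remained, all with the more positive slope in HH: Fut7, Isg20, Krcc1 and Ptprt.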

How the data were processed

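The authors deposited counts of reads per gene for each library and sequencing run, as whole numbers with no normalization. The submitters' processing notes name bcl2fastq, STAR 2.6.0a, HTSeq 0.9.1 and the mm10 build, and whether counting used strand is not given in the sources used here. Counts of the runs of a library were summed, rows without a gene did not enter the totals (reads on no feature were 18.7% to 28.9% of a library in the 3 Txnip groups), and 1 library with 104912 counts was left out. The remaining 61 libraries were ranked by Txnip CPM, and the 15 highest were compared with the 15 lowest. Genes with at least 1 CPM in 3 libraries were tested by edgeR 4.0.16 (TMM factors, quasi-likelihood test) in R 4.3.3, with Benjamini-Hochberg adjustment over 13265 genes. Slopes on log2 Txnip were fitted the same way in the 31 libraries of neither group and in the 19 HH libraries, and the difference in slope between HH and other libraries over all 61. Fits were tested on simulated data. DESeq2 1.42.0, other scalings, filters, group sizes and terms were alternatives, and those without the libraries that stand apart, without the 3 highest and in HH alone were added after the data were seen.

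The groups, gene lists and tests were chosen with earlier results of these data known. Named genes are Arrdc4, Arrdc3, the 10 higher and 10 lower genes of smallest p at 10 CPM or more, the 3 of smallest p in each list, and the 5 most and 5 least like Txnip. Other named genes belong to a count of list members or of genes without overlap, or were chosen after their values were seen. The study calls its replicates biological, the labels do not tie libraries to cultures, and p-values measure the spread between these libraries.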

Additional observations from a re-analysis of the deposited data

Results flagged for a closer look

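The slope of expression on log2 Txnip differed between HH and the other libraries for 1179 of 13265 genes by edgeR's interaction test, with 802 slopes more positive and 377 more negative in HH. The same test gave 302 and 852 genes with library totals in place of TMM factors, and 4 and 0 genes without the 4 libraries that stand apart, none of which is HH. The cause was not tested. Txnip was also checked for a single outlying library in the 9 sets, of 18 with the same treatment and collection by title, that had at least 4 libraries. None was found. Smaller sets, such as LH collection 2 at 8.77 and 139.9 CPM, were not checked.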

How the results depend on the processing

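Against 723 genes higher and 1170 lower in the high Txnip libraries, the counts were 1146 and 572 with library totals, 366 and 770 when libraries were ranked in run 1 and tested in run 2, 196 and 413 with treatment by titles as a term, 174 and 432 without HH libraries, and 2398 and 2585 for a slope over all libraries. In settings added after the data were seen, 501 genes were lower without the 4 libraries that stand apart, 374 were higher and 799 lower without the 3 of highest Txnip, 307 and 380 were called without both, 0 and 0 in HH alone, and 2014 rose with a slope without the 4. Leaving out each of the 30 libraries in turn gave 550 to 784 higher and 895 to 1278 lower genes. With the replicate block the counts were 821 and 1207, and no gene was called in the 31 libraries of neither group. The replicate numbers did not pair the libraries, since deviations correlated at 0.00195 for the same and 0.00153 for other numbers, and 14 of 61 libraries were closest to their own number. For the interaction with HH, library totals gave 302 and 852 genes, and leaving out the 4 libraries gave 4 and 0. The log2 difference of Ptgs2 turned to 0.18 without the 4 libraries, 0.78 in HH alone and 0.24 as a slope without the 4. That of mt-Nd6 turned to 0.093 without the 4, 0.010 without both sets, 0.29 in HH alone and 0.00054 as a slope without the 4, and that of Cryab to 0.099 in HH alone and 0.0098 as a slope without the 4. The causes were not tested. Depth limits genes of a few counts, such as Arrdc4, and the Txnip ranks near both edges of the groups.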
